A study of Mus musculus with 2 samples.

Results

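The 9 homeobox genes Dlx1, Dlx2, Dlx5, Dlx6, Gsx1, Gsx2, Nkx2-1, Lhx6 and Lhx8, which encode transcription factors of the ganglionic eminences and of the interneurons born there, were followed in neural precursor cells with and without extra HMGN1. They were found as the probe sets whose platform annotation gives 1 of these symbols and no other, which gave 1 probe set per gene, 9 of the 21789 probe sets with a single symbol, and 9 of 19938 genes. The cells came from the forebrain of Jcl:ICR mouse embryos at E11.5 and were kept with FGF2 and EGF, growth factors that hold precursors in division. One group received a control retrovirus and the other a retrovirus carrying HMGN1, a protein that binds nucleosomes. Both were replated 3 days after infection and spent 1 day without FGF2 and EGF before total RNA was taken. Each group is 1 array, so no test between the groups was possible, and every difference below describes these 2 RNA samples. The labels do not state the promoter that drives HMGN1 in the virus, the share of cells infected or the number of embryos pooled.

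The ganglionic eminences are the ventral part of the embryonic forebrain and give rise to striatal projection neurons and to cortical and striatal interneurons. Gsx2 and Gsx1 act in dividing precursors, Gsx2 mainly in the lateral eminence, where it sets ventral against cortical identity. Nkx2-1 specifies the medial eminence. The Dlx genes lie in closely linked pairs, Dlx1 with Dlx2 and Dlx5 with Dlx6, and act in sequence as precursors become GABA neurons. Lhx6 and Lhx8 are switched on under Nkx2-1, Lhx6 in migrating interneurons and Lhx8 in cholinergic neurons.

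The labels were checked first on Hmgn1 itself, whose intensity was 230 in the control sample and 348 in the HMGN1 sample. Intensities are the authors' deposited linear values, with medians of 101.1 and 98.8 on the arrays. A gene was called detected when its mean reached a floor of 85.9, set so that 95% of 1035 probe sets for olfactory receptors, whose genes serve the nose rather than the forebrain, lay under it. This left 11325 genes. Differences are HMGN1 virus minus control virus on the log2(intensity + 16) scale. The added 16 shrinks the difference of a dim gene. Different probe sets of 1 gene scattered by an SD of 0.089 over 683 genes, and the differences of all detected genes had an SD of 0.11. The labelled cell type was checked on its markers, and 12 of 12 neural precursor markers were above the floor. Of all 19938 genes, 11325 were above the floor. Of markers of other cells, 2 of 10 microglia, 0 of 9 endothelial and 6 of 10 mesenchyme and pericyte genes were above it. Their summed intensities were 587 and 586, 508 and 481, and 1031 and 1021, control virus first, and no marker was at 0.

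Of the 9 genes, 8 were detected, beside 11325 of all 19938 genes. Of the 8 detected homeobox genes, 7 were lower in the HMGN1 virus sample. The share of all detected genes that were lower was 38.4%, and 50.0% once the differences were centred on the median of detected genes, where 7 of the 8 were still lower. The median difference of the 8 genes was -0.069, against 0.027 for all detected genes. The differences were small: 2 genes, Gsx2 and Gsx1, were at least 1.1-fold lower, a size that 7.20% of detected genes reached, and 0 were lower by 0.32 or more on the log2 scale, as 0.521% of detected genes were. Only Dlx5 among the 9 was higher. The 9 genes thus ran from -0.18 to 0.046, about 2 times the SD between probe sets of 1 gene at the low end and within it at the high end. In these bulk samples fewer cells of a type and less RNA per cell cannot be told apart.

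**Figure D1:**
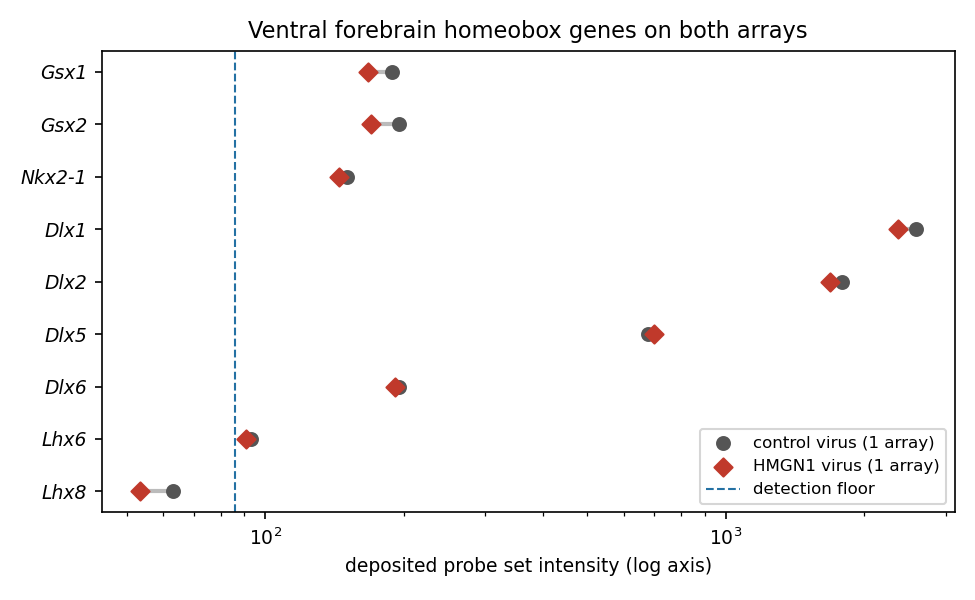
Deposited intensity of the 9 homeobox genes on a log axis, 1 point per array, with the control virus as circles, the HMGN1 virus as diamonds and the detection floor of 85.9 as a dashed line. The HMGN1 virus point lies to the left of the control point for 8 of the 9 genes and to the right for Dlx5, and both points of Lhx8 lie below the floor.

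The precursor factors Gsx2 and Gsx1 had the largest differences among the 8 detected homeobox genes. Gsx2 read 195 on the control array and 169.5 on the HMGN1 array. This is -0.18 on the log2 scale, or 13.0% lower on the intensities without the offset. Gsx1 read 188 and 168, a difference of -0.15, or 11.0% lower. The paralogues thus lay on the same side of 0 and within 0.089 of each other. Of all detected genes, 3.50% had a difference as low as that of Gsx2 and 5.44% one as low as that of Gsx1. The 12 precursor markers had a median of -0.016, and 7 of them, or 58.3%, were lower, beside 38.4% of all detected genes. The other 5 were higher, by up to 0.15, among them Pax6 (0.11). The differences of Sox1, a SoxB factor of neural precursors (601 and 467, -0.35), and the surface protein gene Prom1 (202 and 169, -0.24) were further from 0 than any homeobox gene, and whether precursor content has a part in the values of Gsx1 and Gsx2 was not tested. Nkx2-1, the factor of the medial eminence, stayed closer to its control value, at 150.3 and 145 (-0.051).

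Among the Dlx genes, both members of one linked pair read lower and the members of the other lay on either side of 0. Dlx1 read 2587 and 2369, a difference of -0.13 or 8.41% lower. Its neighbour Dlx2 read 1791 and 1685, a difference of -0.087 or 5.88% lower. Both members of this pair, which are active early in the passage from precursor to neuron, were on the lower side. Dlx5, a later member of the cascade, read 677 and 699, a difference of 0.046 or 3.32% higher. Its neighbour Dlx6 read 196 and 191 (-0.031). The values of this second pair, and that of Dlx2, were smaller in size than the scatter between probe sets, an SD of 0.089.

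The LIM homeobox genes of postmitotic neurons were near or under the floor. Lhx6 read 93.4 and 90.85, a difference of -0.034, just above the floor. Lhx8 read 62.9 and 53.6, both under the floor, and its difference of -0.18 belongs to the range where the scatter is wide. Olfactory receptor probe sets, which mark that range, had an SD of 0.16 and a median difference of -0.050. Without the floor, 8 of 9 homeobox genes were lower, where 45.7% of all genes were.

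The upstream sequence of the 4 detected homeobox genes with the largest differences is given to show what the promoters of this lower-reading group look like. Each line is the 250 bases before the annotated start, 5′ to 3′ on the gene's strand, from RefSeq on GRCm38.p6, and capitals mark TAAT or ATTA, the core bound by many homeodomain proteins read on both strands. The array table names no genome build, and the coordinates are those of the RefSeq sequences alone: Gsx2 chr5:75075351-75075600 on the plus strand, Gsx1 chr5:147188446-147188695 on the plus strand, Dlx1 chr2:71529195-71529444 on the plus strand and Dlx2 chr2:71546755-71547004 on the minus strand.
Gsx2: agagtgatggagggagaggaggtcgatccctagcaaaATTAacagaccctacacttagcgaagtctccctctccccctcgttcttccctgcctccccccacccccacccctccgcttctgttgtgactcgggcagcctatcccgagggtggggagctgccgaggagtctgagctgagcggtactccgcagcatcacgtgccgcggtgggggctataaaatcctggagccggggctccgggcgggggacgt
Gsx1: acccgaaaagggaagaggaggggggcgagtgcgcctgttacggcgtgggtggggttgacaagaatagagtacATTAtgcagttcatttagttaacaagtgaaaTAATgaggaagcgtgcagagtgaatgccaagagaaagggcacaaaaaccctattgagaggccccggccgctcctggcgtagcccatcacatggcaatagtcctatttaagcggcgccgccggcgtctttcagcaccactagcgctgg
Dlx1: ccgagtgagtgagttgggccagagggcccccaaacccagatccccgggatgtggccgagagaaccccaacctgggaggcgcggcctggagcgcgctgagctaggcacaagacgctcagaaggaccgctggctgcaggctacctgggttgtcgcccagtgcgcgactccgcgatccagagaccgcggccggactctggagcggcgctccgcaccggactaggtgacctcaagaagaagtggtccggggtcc
Dlx2: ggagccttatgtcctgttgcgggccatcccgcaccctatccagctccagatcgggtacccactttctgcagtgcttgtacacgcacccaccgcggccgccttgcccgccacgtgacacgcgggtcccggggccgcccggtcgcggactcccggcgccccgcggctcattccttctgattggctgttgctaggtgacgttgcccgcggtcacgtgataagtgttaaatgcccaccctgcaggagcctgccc

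The TAAT or ATTA core was present 2 times in the Gsx1 window and 1 time in the Gsx2 window, and it was in neither Dlx window. Of the 9 homeobox genes 7 had a promoter in the RefSeq table, with 9 annotated starts in all because Lhx6 has 3. The core was in 3 of these 9 windows, the other being the third start of Lhx6 with 3 matches, and in 54.9% of the 32851 promoters of the table. The letters CAAG or CTTG, the core of sites of the NK-2 homeodomain class, were in 8 of 9 windows and in 86.6% of all promoters. The windows were rich in CpG. Observed over expected CpG was 0.63 for Gsx2, 0.85 for Gsx1, 0.76 for Dlx1 and 0.89 for Dlx2, and 8 of the 9 windows exceeded the median of 0.37 over all promoters. The exception was Lhx8, at 0.31. The printed windows were picked by the size of the expression difference. The matches describe letters in a window, and a relation to the differences was not tested.

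Paralogues of these genes that work mainly outside the ganglionic eminences also read lower where they were detected. Of 12 such genes 5 were above the floor and 5 of these 5 were lower, beside the 38.4% of all detected genes. Their median was -0.13, against -0.069 for the 8 detected homeobox genes. Of the 5, 2 were at least 1.1-fold lower, a size that 7.20% of all detected genes reached. Relatives placed in other lists for their use in the forebrain read higher, namely Nkx2-2 (0.17), Lhx9 (0.034) and Lhx2 (0.024), so the count depends on how the list was drawn. The 5 detected paralogues were Nkx2-4 (-0.16), Nkx2-6 (-0.15), Nkx2-5 (-0.13), Dlx3 (-0.12) and Lhx4 (-0.047). Their control intensities lay between 97.3 for Lhx4 and 144 for Nkx2-4, not far above the floor of 85.9. Whether this signal comes from expression of these genes was not tested. The other 7 paralogues were under the floor and ran from -0.28 for Pdx1 to 0.12 for Lhx3. The difference of Gsx1 lay within the range of these 5 paralogues and that of Gsx2 just below it. With the trend of the difference with intensity removed, Gsx1 differed by -0.17, Gsx2 by -0.20 and Nkx2-1 by -0.054.

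Other transcription factors of the ventral forebrain were split. Of 24 analysed 21 were detected. Of the 21, 10 (47.6%) were lower, 10 higher and Otx2 had the same value in both columns, so that the median was 0. Among all genes above the floor 38.4% read lower and 60.1% read higher, around a median of 0.027. In this list 4 were at least 1.1-fold lower and 1 at least 1.1-fold higher, sizes that 7.20% and 13.1% of all detected genes reached. The lowest were Vax1, a homeobox gene of the ventral midline and optic stalk (152 and 126, -0.24), and Olig2, a factor of ventral precursors and the oligodendrocyte lineage (1427 and 1272, -0.16). Sp8 (215 and 193, -0.15) and Sp9 (401 and 362, -0.14), zinc finger factors of interneurons and striatal neurons, read lower by a like amount to Gsx1. The highest were Nkx2-2, an NK-2 homeobox gene (224 and 253, 0.17), and Nr2f2, a nuclear receptor of the caudal eminence (218 and 236, 0.11). Six3 differed by 0.077, and the striatal factor Isl1 was under the floor at 55.0 and 48.7.

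Genes used by the GABA neurons that arise from these precursors went both ways. Counted at any size, their shares were near those of all detected genes. Of 26 interneuron and GABA genes analysed 21 were detected, 14 were higher and 7, or 33.3%, lower, where 60.1% of all detected genes were higher and 38.4% lower. The list median was 0.068, against 0.027 for all detected genes. Of the 21, 5 were at least 1.1-fold higher and 3 at least 1.1-fold lower, sizes that 13.1% and 7.20% of detected genes reached. Gad2 (788 and 915, 0.21) and Gad1 (766 and 837, 0.13), the enzymes that make GABA, were higher, and the highest were Maf, a factor of medial eminence interneurons (226 and 286, 0.32), and the axon guidance receptor Robo2 (339 and 418, 0.29). Npas1, a factor of interneurons (101.3 and 85.2, -0.21), and the neuropeptide Npy (741 and 650, -0.19) were lowest. The vesicular GABA transporter Slc32a1 differed by -0.054 and the peptide Sst by 0.013. Dlx1 and Dlx2, which act upstream of the GABA enzymes, read lower on the same array, and a link between these values was not tested. Whether the lists differ from each other could not be tested with 1 array per group.

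**Figure D2:**
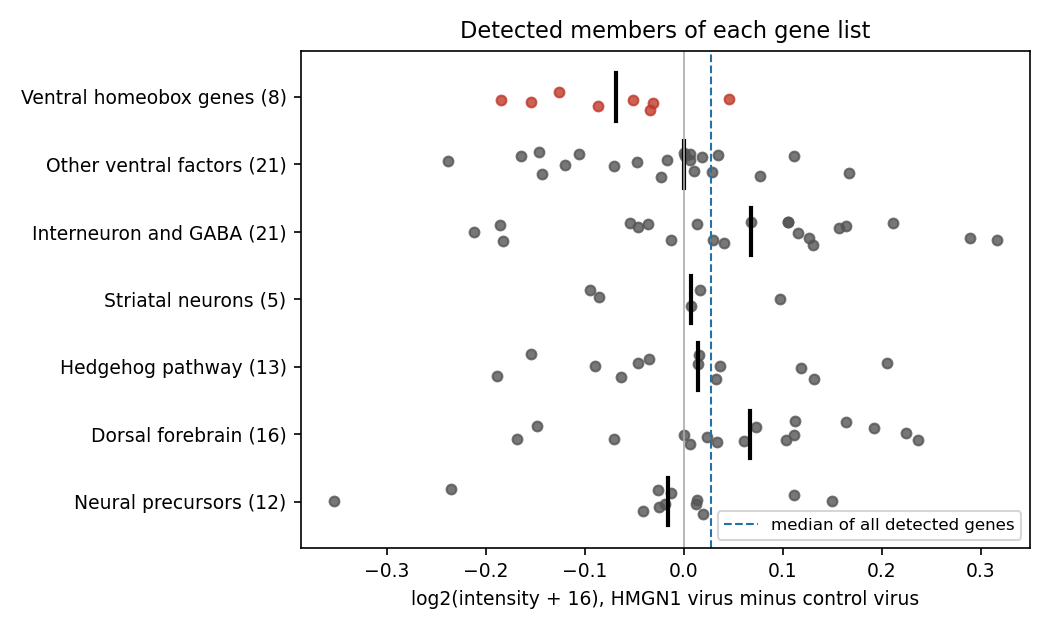
Log2 difference, HMGN1 virus minus control virus, of the detected genes of each list, with the number of detected genes in brackets, 1 point per gene, the list median as a black bar and the median of all detected genes, 0.027, as a dashed line. The homeobox genes centre on -0.069, the other ventral factors on 0 and the interneuron and dorsal lists on 0.068 and 0.067.

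Striatal projection neuron genes were mostly dim, with 5 of 10 detected and a median of 0.0072. Rgs9 (0.098) and Adcy5 (0.017) were highest and the dopamine receptor Drd2 (-0.095) and the phosphodiesterase Pde10a (-0.086) lowest. The hedgehog pathway, which induces Nkx2-1 and patterns the ventral forebrain, had 13 of 16 genes detected. Of the 13, 6 (46.2%) read lower and 7 higher, and their median was 0.014. The shares over all genes above the floor were 38.4% lower and 60.1% higher, and the median over all of these was 0.027. The signs of the striatal and hedgehog medians changed with the scaling or the floor. Shh itself read 105 and 101 (-0.046) and its receptor Ptch1 869 and 832 (-0.063). Gli1, a direct target of the pathway, read 87.3 and 80.1, a mean just under the floor, and was not detected. Gli3, the pathway's main repressor in the forebrain, differed by 0.037. Cdon (0.21) and Gli2 (0.13) were highest, and Gas1 (-0.19) and Kif7 (-0.15) lowest.

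The dorsal forebrain and cortical genes, listed for contrast, were mainly on the higher side, as were 60.1% of all detected genes. Of 18 analysed 16 were detected, 12 were higher, 3 lower and Emx1 had the same value in both columns (159), with a median of 0.067. Pax6, which is set against Gsx2 at the boundary between cortex and lateral eminence, read 526 and 570 (0.11), and Emx2 read 202 and 228 (0.16). Neurod6 (0.24) and Eomes (0.22) were highest and Dmrt3 (-0.17) and Neurod1 (-0.15) lowest. The ventral homeobox genes and the dorsal list thus had medians on either side of the 0.027 of all genes.

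The RNA that overlaps Dlx1 in antisense, Dlx1as, went the other way from Dlx1. Its intensities were 153 (control) and 177 (HMGN1), a difference of 0.20, against -0.13 for Dlx1. Whether the probes of the 2 probe sets tell the strands apart is not stated in the labels, so that signal of one could enter the other. Dlx1as was picked after its value was seen. The nearest protein-coding genes on either side of each locus that have a probe set of their own numbered 14. Of these, 11 passed the floor: 8 read higher, 3 read lower, and their median was 0.084. Most genes on the arrays also leaned this way, as 60.1% of those detected read higher and 38.4% lower, around a median of 0.027. Whether gene span has a part in the neighbour values was not tested. Chic2, beside Gsx2, was the lowest of these 11 at -0.16 (2688 and 2410). On its other side Pdgfra, a receptor of oligodendrocyte progenitors, differed by 0.094. Around the Dlx1 and Dlx2 pair, Metap1d differed by 0.016 and the integrin gene Itga6 by 0.21, both above the pair. Around Dlx5 and Dlx6, Sem1 differed by -0.031 and Sdhaf3 by 0.18.

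**Figure D3:**
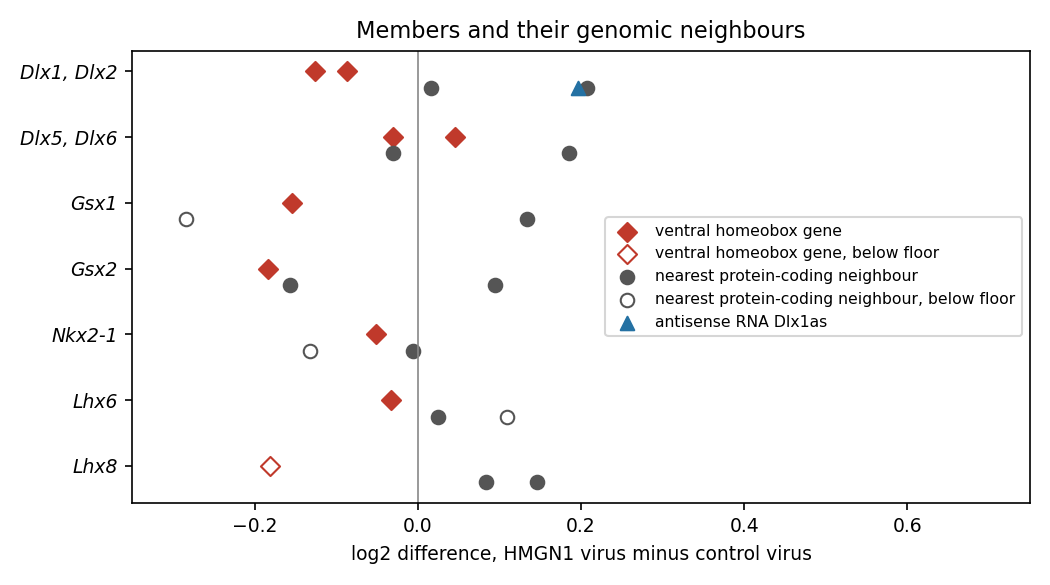
Log2 difference, HMGN1 virus minus control virus, of the homeobox genes as diamonds and, drawn just under them, of their nearest protein-coding neighbours as circles and the antisense RNA Dlx1as as a triangle, with open symbols for genes below the floor. At the Dlx1 and Dlx2 locus the homeobox genes lie below 0 and the neighbours and Dlx1as above it.

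The homeobox genes are short, and on these arrays short genes read lower as a class. Gene span, the distance from annotated start to end with introns, was under 5 kb for 6 of the 8 detected homeobox genes. Detected protein-coding genes under 5 kb had a median difference of -0.023 and 58.0% of them were lower, compared with 0.016 and 41.9% from 5 to 25 kb, 0.046 and 30.3% from 25 to 90 kb, and 0.054 and 26.9% above. Of the 6 homeobox genes under 5 kb, 5 were lower, with a median of -0.069. Dlx1, at 5.87 kb, and Lhx6, at 24.0 kb, fall in the next class and were both lower. At least 1.1-fold lower were 15.1% of genes under 5 kb. The interneuron list spans all classes. Of its 9 detected genes above 90 kb 8 were higher, with a median of 0.11, and of its 4 between 25 and 90 kb 4 were higher, with a median of 0.16. Of its 5 between 5 and 25 kb 0 were higher, with a median of -0.18. Of its 3 under 5 kb 2 were higher, with a median of 0.013, among them Maf, the highest gene of the list. With the span trend removed, a setting chosen after seeing the data, the median of the 8 homeobox genes was -0.069 and that of the interneuron list 0.044. The background moved under this setting. The median of all detected genes was 0.00042, against 0.027 as reported, and 49.81% of them were lower, against 38.4%. Gsx2 then differed by -0.16 and Gsx1 by -0.13, which leaves 1 gene at least 1.1-fold lower. Under the same setting Dlx1 differed by -0.12, Dlx2 by -0.071, Gad1 by 0.082 and Gad2 by 0.16.

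**Figure D4:**
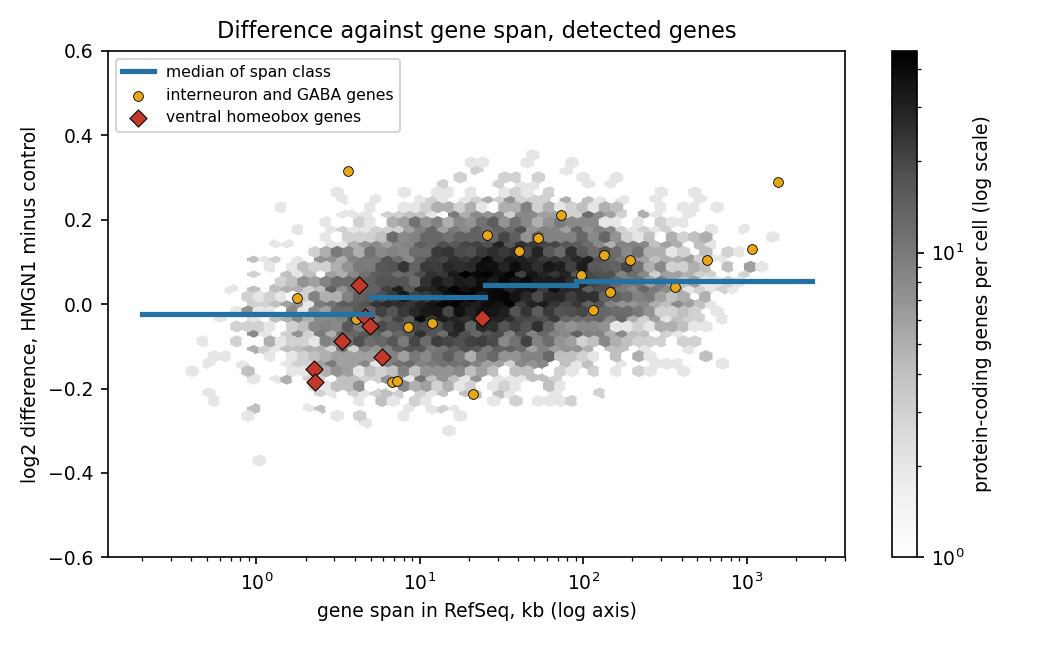
Log2 difference, HMGN1 virus minus control virus, against gene span in kb on a log axis for detected protein-coding genes (grey, darker for more genes), the median of each span class as blue lines, the interneuron and GABA genes as yellow circles and the detected homeobox genes as red diamonds. The class medians climb from -0.023 for the shortest to 0.054 for the longest genes, and 7 of the 8 diamonds lie below 0.

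All 9 homeobox genes kept their sign under the 7 alternatives that act on the values. For some of these the outcome was fixed in advance. An offset cannot change a sign, and averaging probe sets cannot change a gene with 1 probe set. Gsx2 ran from -0.21 to -0.15, Gsx1 from -0.18 to -0.12, Dlx1 from -0.15 to -0.11 and Dlx2 from -0.11 to -0.071. Dlx5 ran from 0.019 to 0.056 and Lhx6 came closest to 0, from -0.067 to -0.0043. These settings reprocess the same pair of arrays and carry no information on variation between cultures.

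**Figure D5:**
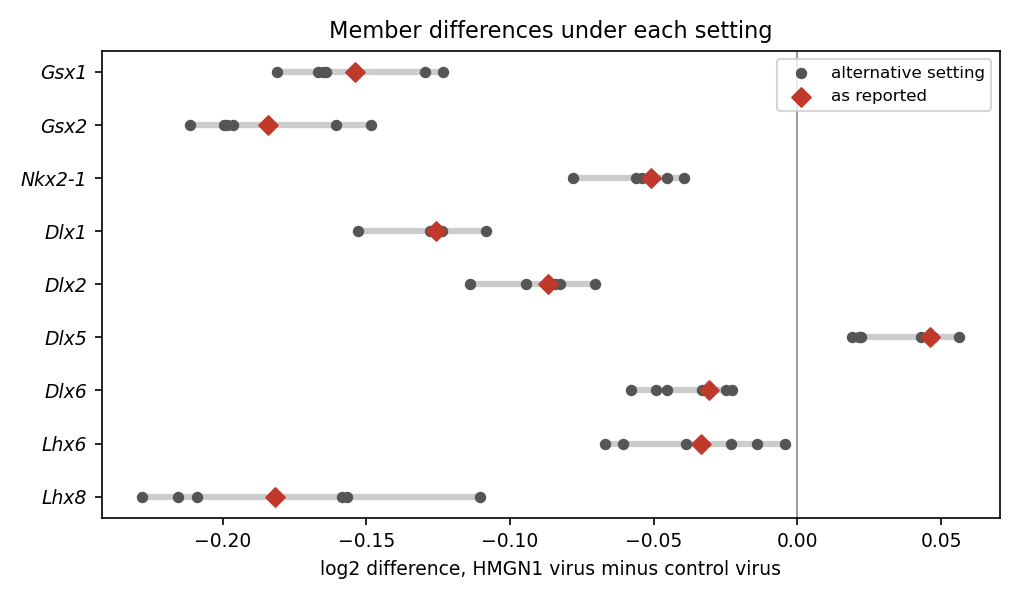
Log2 difference, HMGN1 virus minus control virus, of each homeobox gene as reported (diamonds) and under the 7 alternative settings (circles), with a grey bar over their range. No bar crosses 0, and that of Lhx6 reaches -0.0043.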

How the data were processed

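Biotin-labelled total RNA from 2 samples, 1 per virus, was hybridised to 1-colour whole-transcript arrays, per the labels' protocols. The authors deposited a linear intensity for each of 28944 probe sets on both arrays. Background correction, normalization and probe set summary are not given in the sources used here, and no further normalization was applied. GEO's platform annotation named 21789 probe sets with 1 symbol, 1621 with several (not used) and 5534 with none. RefSeq (GRCm38.p6), matched by gene number for 19856 genes and all 9 homeobox genes, gave span and neighbours. Log2(intensity + 16) was taken, a gene took its brightest probe set, and differences were counted by fixed fold sizes, with no test. The code (Python 3.11.15, statsmodels 0.14.6) was tested on simulated data. The members and lists were chosen with earlier results of these data known. The genes named are all 9 members, the 2 highest and 2 lowest detected genes of each ventral, interneuron, striatal, hedgehog and dorsal list, 16 genes fixed by name where analysed, and the detected paralogues; Slc32a1, Sst, Otx2, Lhx2, Lhx9, Sox1, Prom1, the neighbours and the paralogues below the floor were named after their values were seen. The number of arrays limits the precision. Protein sequences were not used here.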

Additional observations from a re-analysis of the deposited data

How the results depend on the processing

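The detected homeobox genes, 7 to 9 of them, had a median between -0.096 and -0.062 under every alternative run. Of 203 values of 29 named genes, 203 moved by less than 0.089, the scatter (SD) of probe sets that share a gene. These values include the averaging of probe sets, which cannot move a gene with 1 probe set. With stricter floors Lhx6 was lost and 6 of 7 were lower; with no floor 8 of 9 were. The count at least 1.1-fold lower, 2, became 1 with an offset of 64 and 1 with the gene span trend removed, a setting chosen after seeing the data, and 3 with centring and 3 with no filter. An offset of 64 gave 4.13% of detected genes at least 1.1-fold lower and 8.49% higher (7.20% and 13.13% as reported), and 29 genes lower by at least 0.32 on the log2 scale and 10 higher by as much (59 and 56 with the offset of 16). With no filter 12.09% were 1.1-fold lower, and 195 genes were lower by at least 0.32, 114 higher and 3 at least 1.5-fold higher (0 as reported), a count that was also 3 with an offset of 1. Centring gave 10.5% at least 1.1-fold lower and 8.38% higher, and 82 genes lower by at least 0.32 and 29 higher. Removing the span trend gave 9.29% and 8.42%, 36 genes higher by at least 0.32 and 4 at least 1.5-fold lower (8 as reported). The striatal median of 0.0072 became -0.020 with centring, -0.034 with both stricter floors, -0.073 with no filter and -0.035 without the span trend. The hedgehog median of 0.014 became -0.0066 with quantile normalization, -0.013 with centring, -0.013 without the intensity trend, -0.041 with no filter and -0.035 without the span trend. The precursor median of -0.016 became 0.0016 with quantile normalization and 0.0011 without the span trend, and the mesenchyme median of -0.049 became 0.047 with no filter. For the trends and quantile normalization the cause was not tested; the offset, the floor and centring act by construction. No paired analysis was possible because a single array stands for each virus, and so no replicate could be left out. Signal near the floor limits Lhx6 and Lhx8. Nkx2-1, at 150.3 and 144.5, read close to its paralogue Nkx2-4, at 144 and 128. Whether the Nkx2-1 signal is specific to that gene was not tested.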
